A study of Mus musculus with 4 samples.

Results

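Promoters of Gm and Rik predicted genes are the accessible regions of mouse macrophages that lie at the start sites of genes with a provisional name in the deposited annotation. Overlapping peaks (1 bp or more) of the 4 ATAC-seq libraries were joined on chromosomes 1 to 19, X and Y, which gave 60710 regions. A region was kept when its highest peak was assigned to a gene named Gm plus a number, or to a gene whose name ends in Rik, at a distance of at most 1000 bp from its transcription start site (TSS). This gave 1021 regions of 751 genes, 240 regions at Gm genes and 781 at Rik genes. A further 14026 regions lay within the same distance of the TSS of other genes and are called other promoters. The rule used the name and the distance, both read from the highest peak of a region, so height decided which gene named it. When any peak of a region could pass, there were 1082 regions, 635 with a peak in all 4 libraries, against 1021 and 581. No difference between control and IL-4 entered the rule.

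ATAC-seq marks open DNA by the insertion of adapters by the Tn5 transposase. Bone marrow-derived macrophages (BMDMs) of wild-type mice aged 8 to 12 weeks were grown for 6 days in L929 supernatant, which supplies M-CSF, the growth factor of macrophages. Control cells (n = 2 libraries) had no further treatment, and the IL-4 group (n = 2 libraries) received 20 ng/ml IL-4 for 1 h. The paper names 2 independent biological replicates for its ATAC-seq. The labels do not say whether the libraries came from separate animals, so p-values measure only the spread between these libraries. Promoter regions were found for 9 of 11 macrophage markers, 7 of them in all 4 libraries, with none at Spi1 and Csf1r. Of 20 markers of T cells, B cells, neutrophils, mast cells, fibroblasts and epithelium, 3 had a promoter region, each in 1 library, and 0 had one in all 4 libraries.

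Gm symbols are given to gene models predicted from genome sequence, and Rik symbols to full-length cDNA clones of the RIKEN collection. Such genes are a mixture of long non-coding RNAs (lncRNAs), antisense transcripts, pseudogenes, recent gene copies and protein-coding genes that later received a proper name. An lncRNA promoter has the same general architecture as that of a coding gene, and many lncRNAs start head to head with a coding gene from a shared open region. IL-4 activates the transcription factor STAT6, which binds palindromes of TTC and GAA with 4 bases between them, whereas other STAT proteins favour 3 bases. AP-1 and the ETS factor PU.1 are the factors best known at macrophage enhancers.

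The sequences of regions found under a single condition are shown first, read from the GRCm38.p6 (mm10) plus strand with the motif in capitals. Of 19 promoters found in both IL-4 libraries and in neither control library, 7 hold the STAT6 spacing and 2 the 3-base STAT spacing. Printed here are 5 with the STAT6 spacing, and Gm19689 with the 3-base spacing. The region of Gm19434, open in all 4 libraries, is given beside them.
Gm16325, chr3:146642088-146642157: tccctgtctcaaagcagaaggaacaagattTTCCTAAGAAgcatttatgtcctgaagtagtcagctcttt
Gm20139, chr10:19168072-19168141: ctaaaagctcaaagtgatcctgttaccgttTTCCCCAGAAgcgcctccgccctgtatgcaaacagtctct
9230102O04Rik, chr2:9890099-9890168: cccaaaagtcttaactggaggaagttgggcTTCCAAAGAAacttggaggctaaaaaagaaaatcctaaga
G630025P09Rik, chr11:69802987-69803056: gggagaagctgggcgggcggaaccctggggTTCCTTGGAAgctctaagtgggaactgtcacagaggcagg
Gm766, chr6:142804937-142804977: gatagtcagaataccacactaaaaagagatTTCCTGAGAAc
Gm19689, chr17:83078645-83078713: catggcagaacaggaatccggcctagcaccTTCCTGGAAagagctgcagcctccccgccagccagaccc
Gm19434, chr6:135188253-135188322: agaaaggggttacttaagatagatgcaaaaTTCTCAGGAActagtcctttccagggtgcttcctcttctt
Promoters found in the control libraries alone hold no STAT6 spacing, and the 4 below show AP-1 (TGAGTCA or TGACTCA) or PU.1 (GAGGAAGT or ACTTCCTC) in capitals. PU.1 letters are not particular to them, and the 9230102O04Rik sequence above holds GAGGAAGT in lower case. Of 19 windows in each set, 3 of the control libraries and 2 of the IL-4 libraries had PU.1 letters. The region of 5430437J10Rik, lower in both IL-4 libraries, is given beside them.
4931406H21Rik, chr14:25587032-25587098: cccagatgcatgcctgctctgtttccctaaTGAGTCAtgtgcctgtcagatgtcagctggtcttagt
Gm10485, chr12:3861819-3862028: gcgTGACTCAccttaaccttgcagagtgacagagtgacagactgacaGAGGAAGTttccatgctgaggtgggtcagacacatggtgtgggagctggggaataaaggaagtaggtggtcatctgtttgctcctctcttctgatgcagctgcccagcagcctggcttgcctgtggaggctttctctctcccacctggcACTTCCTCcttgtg
5830416P10Rik, chr19:53464866-53464966: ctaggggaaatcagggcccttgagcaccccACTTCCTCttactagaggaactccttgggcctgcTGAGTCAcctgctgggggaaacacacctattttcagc
1600002D24Rik, chr16:95929758-95929825: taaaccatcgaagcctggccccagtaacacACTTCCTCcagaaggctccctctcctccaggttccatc
5430437J10Rik, chr15:5495338-5495404: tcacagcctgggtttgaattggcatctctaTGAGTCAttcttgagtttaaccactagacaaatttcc
A pair of the tallest promoters lie between divergent genes, and the whole stretch between the start sites of 3110045C21Rik and Hsd17b7 is printed with NF-Y (CCAATC), Sp1 (GGGCGG or CCGCCC) and E-box (CACGTG) letters in capitals, followed by that between 4632427E13Rik and Rab30.
3110045C21Rik, chr1:169969206-169969408: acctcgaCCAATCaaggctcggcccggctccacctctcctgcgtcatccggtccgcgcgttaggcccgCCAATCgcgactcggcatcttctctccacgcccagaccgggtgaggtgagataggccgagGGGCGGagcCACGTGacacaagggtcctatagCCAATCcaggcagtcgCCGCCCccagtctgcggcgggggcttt
4632427E13Rik, chr7:92741460-92741713: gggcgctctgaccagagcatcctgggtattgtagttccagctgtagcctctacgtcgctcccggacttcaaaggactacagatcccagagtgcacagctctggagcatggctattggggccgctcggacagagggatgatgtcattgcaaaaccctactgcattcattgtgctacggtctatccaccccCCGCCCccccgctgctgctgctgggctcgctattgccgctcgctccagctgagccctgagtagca

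A current RefSeq annotation shows what the provisional names stand for. Of the 751 genes, 744 matched it by gene identifier, and 232 now carry another symbol. The renamed genes were 177 protein-coding genes, such as Mtln (1500011K16Rik) and Card19 (1110007C09Rik), and 49 lncRNAs, and 32 symbols of renamed genes end in os, which stands for opposite strand. In all, 360 genes were lncRNAs, 360 protein-coding, 23 pseudogenes and 1 a miscellaneous RNA. By regions, 474 were at lncRNA, 494 at protein-coding and 34 at pseudogene promoters. The remaining regions include those of the 7 genes without a match. Of 539 promoter regions of lncRNA genes in the series, 474 (87.9%) were Gm or Rik promoters.

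Most genes had a single region. It was 1 region for 531 genes, 2 for 182 and 3 or more for 38. The most, 8 regions, belonged to Gm14432, whose name the annotation gives to several places of chromosome 2. 2700050L05Rik (now Edrf1) and 1190002N15Rik (now Dipk2a) had 4 regions each. At 2700050L05Rik, the core region (chr7:133637335-133637834) reached 38.9 and 39.4 in the control and 43.9 and 23.9 in the IL-4 libraries, and the most distant one, 846 bp downstream, had peaks of 4.02 and 3.64 in the control libraries alone. Height is the peak score, read as −log10 of the q-value, which measures the evidence for a peak in its own library and grows with sequencing depth. That depth is unknown, since the files hold no read counts.

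By the annotation of the highest peak, 753 regions were promoter-TSS, 168 intronic, 48 in non-coding exons, 30 in coding exons, 17 in 5′ UTRs and 5 at transcription ends. The centre of the highest peak lay upstream of the TSS in 549 regions and downstream in 468, with a median of −16 bp and quartiles of −96 and 224 bp. Other promoters had a median of −23 bp. Just inside the limit lay 2010016I18Rik at 997 bp and 5430437J10Rik at −995 bp. Just outside it were B330016D10Rik at 1002 bp, with peaks of 5.68, 4.67 and 5.13 and no peak in the second IL-4 library, and Gm1821 at −1015 bp, with 4.61 and 1.94 in the control libraries alone.

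Gm and Rik promoters were open about as regularly as other promoters. A peak was present in all 4 libraries in 581 of 1021 regions (56.9%), against 60.9% of other promoters and 41.9% of all regions. Regions found in 1 library alone made up 21.8%, against 19.02% and 29.6%. The libraries contributed 64 and 45 of these in the control group and 68 and 46 in the IL-4 group. The median length was 281 bp, against 305 bp for other promoters and 209 bp for all regions.

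**Figure D1:**
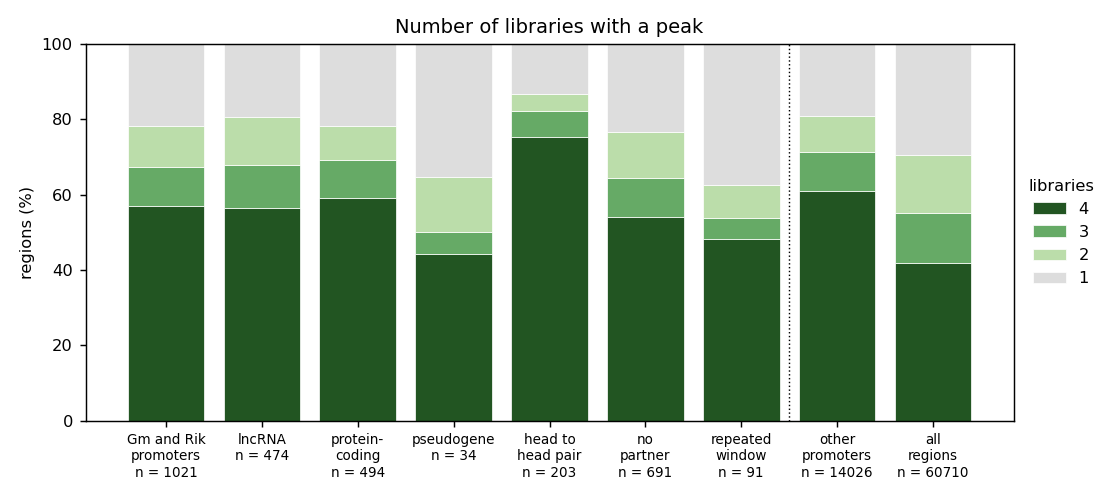
Share of regions (y axis, %) with a peak in 4, 3, 2 or 1 of the libraries, for all Gm and Rik promoters, for subsets of them (left of the dotted line, n under each bar) and for other promoters and all regions (right). Head to head promoters have the largest dark part of the bars, 75.4%, and pseudogene promoters the smallest of the bars drawn left of the line, 44.1%.

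Over the regions with a peak in a given library, their median height was slightly below that of other promoters in every library. In control replicate 1 the median height was 10.3, in control replicate 2 it was 9.62, in IL-4 replicate 1 it was 9.69 and in IL-4 replicate 2 it was 8.56. Other promoters had medians of 10.7, 10.2, 10.3 and 8.86 in the same order. All regions had 8.25, 7.46, 7.88 and 6.43. Over regions with a peak in all 4 libraries, Gm and Rik promoters had 13.8, 12.7, 13.1 and 10.6. Other promoters had 13.9, 12.8, 13.2 and 10.4 there, so the order was reversed in the second IL-4 library. The second IL-4 library was lowest in all 3 sets and had the fewest peaks, 39462 against 41885 to 45250 in the others.

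Many of these promoters face another gene, and those that start head to head with it had higher peaks. Of the 975 regions with a matched transcript, 284 (29.1%) had another gene starting within 1000 bp on the other strand. Of these regions, 203 (171 genes) were head to head with the other gene, and 81 (62 genes) overlapped it. For other promoters the share with a partner was 13.9%. It was 45.3% at lncRNA promoters and 15.1% at protein-coding ones. Head to head promoters had a peak in all 4 libraries in 75.4% of cases and medians of 14.2, 13.1, 13.5 and 10.7, whereas those without a partner had 54.0% and medians of 9.55, 9.17, 9.21 and 8.01. Overlapping regions had 43.2% and medians of 6.83, 7.78, 6.38 and 7.3. The head to head regions were also longer, with a median of 397 bp against 264 bp without a partner.

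By mean log2 height over the 4 libraries, the tallest promoter was that of the lncRNA 3110045C21Rik (chr1:169968906-169969564), with 52.6 and 49.6 in the control and 57.4 and 48.5 in the IL-4 libraries. It starts 204 bp from Hsd17b7, an enzyme of cholesterol synthesis, and the sequence between them holds 3 NF-Y motifs, 2 Sp1 motifs and an E-box. The lncRNA 4632427E13Rik starts 255 bp from Rab30, a small GTPase of the Golgi, and had 51.3 and 46.3, then 53.6 and 47.3. A430035B10Rik, 439 bp from Glcci1, had 50.3 and 41.9, then 50.7 and 41.8. At all 3 the control and IL-4 heights overlapped.

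Of the other 5 tallest promoters, 4 belonged to protein-coding genes and 1 to an lncRNA. Gm16039, now Umad1, had 48.6 and 52.8 in control and 61.6 and 37.4 in IL-4 libraries, of which 61.6 was the highest of any Gm or Rik promoter. 1110004F10Rik had 50.3 and 39.5, then 39.4 and 42.1, and it shares its region with another Rik gene, 1700003G18Rik, which starts 231 bp away on the other strand. 1810022K09Rik, now Rbis, a ribosome biogenesis factor, had 35.9 and 42.2, then 47.6 and 40.3. 2610008E11Rik and the lncRNA 1700028E10Rik lay between 35.1 and 45.5 in every library. The log2 changes of the 8 ran from −0.11 to 0.24, and none passed the limma test.

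Their sequence was poorer in CpG than that of other promoters. In the 200 bp around the highest peak, the median GC content was 60.0% and the median observed over expected CpG ratio 0.68, against 64.5% and 0.79 at other promoters and 50.5% and 0.27 over all regions. Gm promoters had a ratio of 0.40 and Rik promoters 0.74. Windows of repeated sequence, 30.4% of Gm and 2.30% of Rik promoters, had a ratio of 0.25. Sp1 letters were present in 42.1% of the windows against 55.5% at other promoters, and ETS letters (CCGGAAG) in 12.6% of both. NF-Y letters occurred in 16.1% against 14.1%, and in 14.3% once windows of repeated sequence were left out. The STAT6 spacing was found in 53 windows (5.19%), against 2.99% at other promoters and 6.32% of all regions, and in 4.30% once windows of repeated sequence were left out.

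**Figure D2:**
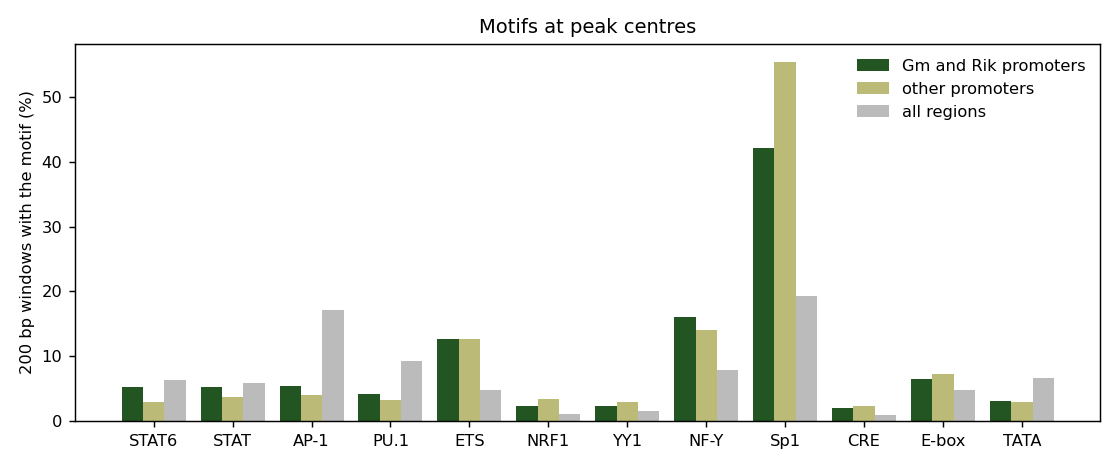
Share of 200 bp windows (y axis, %) that hold each of 12 motifs on either strand, for Gm and Rik promoters, other promoters and all regions. Sp1 is the most frequent in Gm and Rik promoters at 42.1%, and AP-1 is at 5.39% there against 17.1% over all regions.

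The remaining motifs differed by less than 2 percentage points from other promoters. AP-1 letters stood in 5.39% against 4.05%, and PU.1 letters in 4.11% against 3.17%. lncRNA promoters had AP-1 in 7.59% and PU.1 in 5.06%, protein-coding ones 3.04% and 3.44%. A match is a description of letters, and factor binding was not measured.

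The main question for the comparison was whether 1 h of IL-4 changed accessibility at these promoters. The number of regions with a peak was 802 and 756 in the control and 808 and 721 in the IL-4 libraries. The means were 779 ± 32.5 and 764.5 ± 61.5 (SD, n = 2 each), and the difference of −14.5 was smaller than the spread (two-sided exact permutation test over libraries, p = 1.0, with 0.3333 the smallest p this design allows). Without control replicate 1 the difference turned to 6, and without IL-4 replicate 2 to 31.5.

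As a share of all peaks, those in Gm and Rik promoters made up 1.87% and 1.93% in the control libraries. In the IL-4 libraries they made up 2.06% and 1.97%. The groups did not overlap, and the means were 1.90 ± 0.0405% and 2.01 ± 0.0578% (SD, n = 2 each, exact permutation p = 0.3333). Other promoters moved in the same direction, from 27.2% and 28.1% to 29.1% and 28.5%. Among promoter peaks alone, those at Gm and Rik genes were 6.44% and 6.42%, then 6.61% and 6.48%.

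Height was tested with limma at the 581 promoters that had peaks throughout the 4 libraries, as part of a fit over all 25442 such regions. No Gm or Rik promoter passed an adjusted p of 0.05 in either direction. Over all regions 4 passed as higher (0.0157%) and 2 as lower (0.00786%), so very few calls were made anywhere. The lowest adjusted p of a Gm or Rik promoter was 0.236. At an unadjusted p under 0.05 there were 38, of which 23 were higher and 15 lower, a share of 6.54% beside 8.28% of all regions and 4.74% of other promoters.

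The median log2 height change, IL-4 minus control, was 0.05 for Gm and Rik promoters and 0.04 for other promoters, with a median of 0.00 over all regions. It was 0.06 between the libraries numbered 1 and 0.00 between those numbered 2. Without quantile normalisation it was 0.09, beside 0.03 over all regions. By kind, the median was 0.03 at lncRNA promoters, 0.08 at protein-coding promoters and 0.04 at head to head promoters. In all, 321 regions had a positive and 260 a negative change (55.3% positive, against 54.4% of other promoters).

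The largest positive change in height was at Gm16386 (chr17:22817495-22818056), a transcribed pseudogene, where the control libraries had 9.33 and 3.46 and the IL-4 libraries 13.5 and 18.4. The log2 change was 1.71 ± 0.48 (SE, limma adjusted p = 0.236). Mtln (1500011K16Rik, chr2:127792409-127792595), which encodes a mitochondrial micropeptide, had 9.09 and 2.51, then 10.6 and 11.0, a log2 change of 1.39 ± 0.53. Card19 (1110007C09Rik), a protein with a caspase recruitment domain, had 6.98 and 3.84, then 11.0 and 11.9. In each of these the second control library was the low value. Without control replicate 2 the log2 change was 1.08 at Gm16386 and 0.58 at Mtln, and without control replicate 1 it was 2.17 at Mtln.

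Gm13139, now the zinc finger gene Zfp991, had 4.49 and 7.12 in the control and 12.0 and 12.6 in the IL-4 libraries, a log2 change of 1.33 ± 0.49, but every 50-base word of its window occurs more than once in the genome. Gm19434 (chr6:135188217-135188556), the lncRNA with the STAT6 spacing printed above, had 10.8 and 5.33, then 13.0 and 16.0, a log2 change of 1.14 ± 0.44 (limma adjusted p = 0.447), or 0.74 without control replicate 2. The IL-4 heights were above both control heights at all 5 of these promoters. They were chosen as the largest changes, so that separation describes the choice.

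The largest negative change was at Gm13845, now Mkln1os (chr6:31398645-31399059), an lncRNA that starts 55 bp from Mkln1, the gene of muskelin. Its heights were 14.9 and 12.7 in the control and 3.96 and 4.55 in the IL-4 libraries, a log2 change of −1.48 ± 0.50 (SE, limma adjusted p = 0.367). Man2c1os (2410133F24Rik), an antisense transcript that overlaps the start of the mannosidase gene Man2c1, had 10.8 and 13.4, then 5.28 and 3.55, a log2 change of −1.30 ± 0.52. Both are opposite-strand transcripts and neither passed the test.

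A530054K11Rik, now the zinc finger gene Zfp729a, had 16.3 and 11.5, then 5.69 and 4.89, in its first intron, 343 bp from the TSS. Once peaks within 500 bp were merged, the region took in a neighbour and the log2 change became 0.46. 5430437J10Rik (chr15:5495186-5495472), an lncRNA whose printed sequence holds an AP-1 motif, had 16.5 and 20.9, then 9.97 and 5.12, a log2 change of −1.14 ± 0.41. Gm6377 on the X chromosome had 10.9 and 14.4, then 6.62 and 3.73. The IL-4 values were below both control values at all 5, again by the choice of the largest negative changes.

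**Figure D3:**
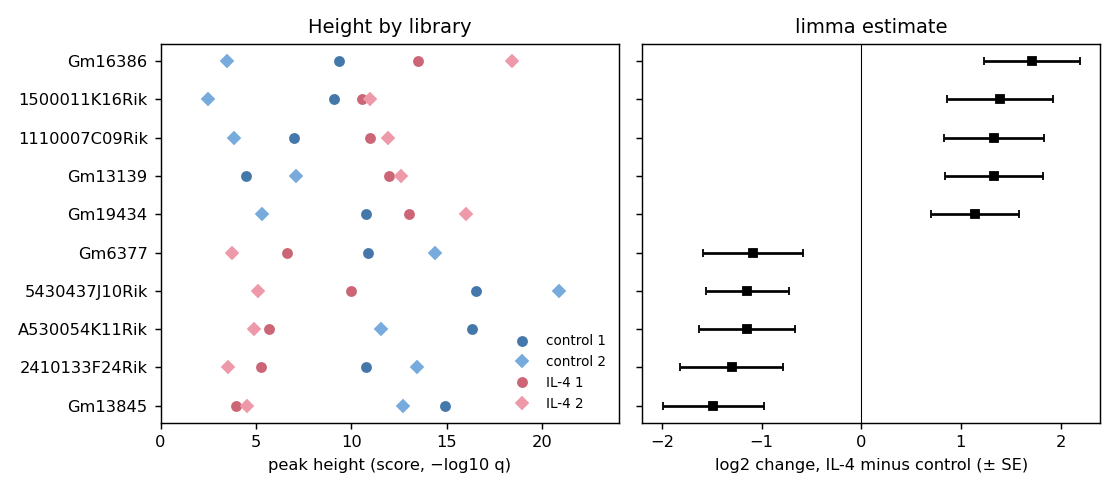
Left, peak height (x axis, −log10 q) in each library at the 5 largest positive (upper rows) and 5 largest negative changes (lower rows) among Gm and Rik promoters found in all 4 libraries. Right, the limma log2 change, IL-4 minus control, with its SE, from −1.48 at Gm13845 to 1.71 at Gm16386, none past an adjusted p of 0.05.

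Presence or absence of a peak gave the clearest examples. An IL-4-only region has a peak in both IL-4 libraries and in neither control library. There were 19 such Gm or Rik promoters (1.86%), beside 2.53% of all 60710 regions and 1.24% of other promoters. Control-only regions, the reverse, were also 19 (1.86%), beside 4.33% of all regions and 2.31% of other promoters. The IL-4-only set held 11 lncRNA and 5 protein-coding promoters, the control-only set 10 and 9. Most were weak, since the median of the lower height was 4.76 in the IL-4-only and 4.5 in the control-only set, and a missing peak does not show closed chromatin. With a library left out fewer peaks are needed, and the IL-4-only and control-only counts were 45 and 70 without control replicate 1, 35 and 91 without control replicate 2, 67 and 74 without IL-4 replicate 1, and 92 and 36 without IL-4 replicate 2.

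Gm16325 (chr3:146642004-146642318), an lncRNA, stood first. It had no peak in the control libraries and heights of 16.7 and 15.3 in the IL-4 libraries, 246 bp downstream of its TSS in exon 1. Ranked by the lower of the IL-4 heights it was number 1 of all 1534 IL-4-only regions of the series. The nearest other coding gene by start site, 4930503B20Rik, was 9.4 kb away. Gm20139 (chr10:19167771-19168226), an lncRNA whose TSS lies 151.8 kb from Tnfaip3, the gene of the NF-κB inhibitor A20, had 22.7 and 11.2 and ranked 18. The STAT6 spacing printed above lies inside both regions.

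The next 3 were upstream of lncRNAs. Gm4262 (chr16:11008221-11008513) had 9.32 and 7.96, has its TSS 15.8 kb from that of Litaf, an LPS-induced gene, and holds the 3-base STAT spacing in 2 places. Gm19689 (chr17:83078584-83078822) had 9.93 and 7.27, has its TSS 137.1 kb from that of Pkdcc, and holds the 3-base spacing. 9230102O04Rik (chr2:9889937-9890343), whose TSS is 10.9 kb from that of Gata3, a transcription factor of type 2 immunity, had 6.58 and 7.98 and holds the STAT6 spacing. The control libraries had no peak within any of the 3. The neighbours named for these promoters are the nearest coding genes by start site, and a link to them was not tested. Merging peaks within 500 bp brought in control peaks at Gm19689 and 9230102O04Rik, above which the lower IL-4 height stood by 4.28 and 2.89, against 7.27 and 6.58 before. With only peaks above the pooled median score these 2 no longer had a peak in both IL-4 libraries.

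The remaining 14 had heights from 2.53 to 9.33. They include G630025P09Rik, with 4.76 and 5.58 and the STAT6 spacing, Gm766 (now Sult6b2, a sulfotransferase gene), with 9.21 and 4.3 and the STAT6 spacing, and a region of Snhg16 (1810032O08Rik) at −423 bp from its TSS, with 3.13 and 2.72. The core promoter of Snhg16 had a peak in all 4 libraries, 9.55 and 5.99 in control and 14.2 and 8.91 in IL-4 libraries. In 15 of the 19 the first IL-4 library was the higher of the pair.

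In the 200 bp windows the STAT6 spacing was present in 6 of the 19 IL-4-only promoters (31.6%) and in 0 of the 19 control-only promoters. It was present in 29.8% of all IL-4-only regions, 12.6% of other IL-4-only promoters and 2.28% of all control-only regions. Over the full length of the regions the counts were 7 and 0. One of the 7, Gm14432, lies in repeated sequence. Of the 581 promoters with a peak in all 4 libraries, 2.75% had the STAT6 spacing. The 3-base STAT spacing was equally frequent in both sets, in 2 of the 19 IL-4-only and 2 of the 19 control-only windows.

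Among control-only promoters, 4931406H21Rik (chr14:25586977-25587150) had the highest pair, 8.80 and 8.53, and no peak after IL-4. Gm10485, now Dnmt3aos (chr12:3861819-3862028), the opposite-strand transcript of the DNA methyltransferase gene Dnmt3a, had 8.34 and 7.81. Once peaks within 500 bp were merged, it became one with a neighbouring region that had a peak in every library, and the lower control height exceeded the highest IL-4 height by 1.45. Mirt1 (5830416P10Rik, chr19:53464721-53464967) had 9.45 and 6.65 at its TSS, and 4 other control-only regions lay within 100 kb. All 3 hold the AP-1 letters, and the last 2 also the PU.1 letters.

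Gm12250 (chr11:58183680-58183842), a protein-coding gene of the interferon-inducible GTPases, had 7.71 and 7.12 in the control libraries, at −82 bp from its TSS, with the 3-base STAT spacing in the region. A peak of 2.49 in the second IL-4 library began 14 bp beyond it, and with peaks within 500 bp merged the lower control height exceeded the highest IL-4 height by 4.63. 4930449E18Rik (chr19:57272903-57273129) had 6.57 and 7.05, and its transcript overlaps the start of Ablim1. Once peaks within 500 bp were merged, an IL-4 peak joined that region and the gap between groups turned to −1.65. The next, 1600002D24Rik, had 12.0 and 6.21, with the PU.1 letters. By the lower control height the highest of the control-only set ranked 51 of 2630 such regions.

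AP-1 letters stood in 4 of the 19 control-only windows (21.1%) and in 0 of the 19 IL-4-only windows. All control-only regions had 22.7% and all IL-4-only regions 15.8%. Other control-only promoters had 7.10%. PU.1 letters stood in 3 control-only and 2 IL-4-only windows. With 19 regions a set these counts are small, and no test was made over regions.

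**Figure D4:**
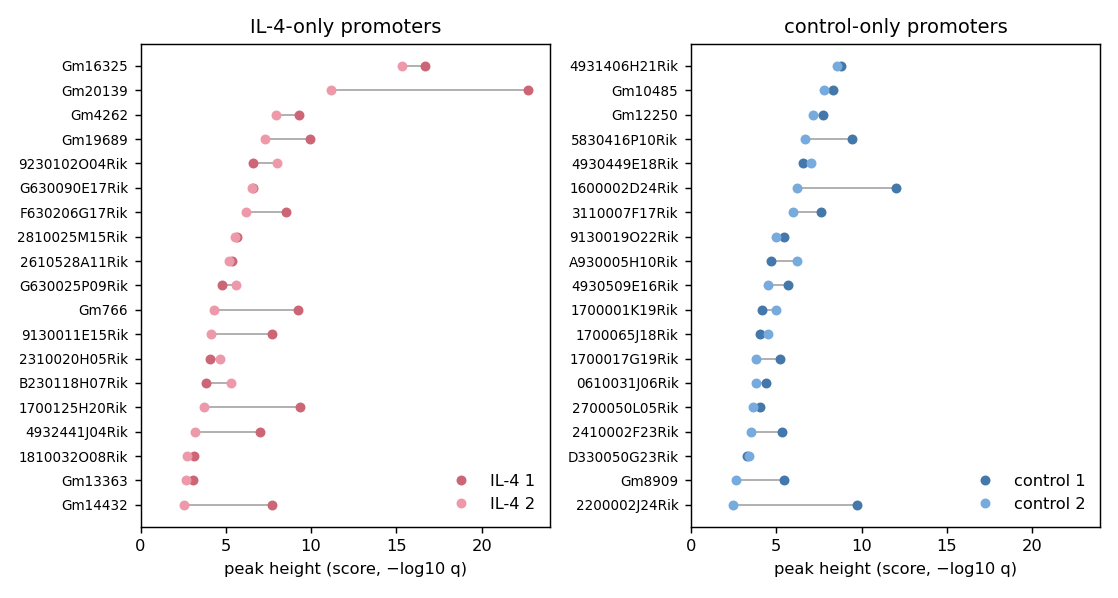
Peak heights (x axis, −log10 q) of the 19 IL-4-only (left) and 19 control-only (right) promoters, with a point for each library of the group that has peaks and a line joining them. Gm16325 and Gm20139 lie above 11 in both IL-4 libraries, and no control-only promoter reaches 8.6 in both control libraries.

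The descriptions of the genes gave 8 further groups, none of which had a promoter past the limma threshold. Opposite-strand or antisense transcripts had 41 regions, 23 of them in all 4 libraries, with 10 positive and 13 negative changes and a median of −0.13. Smc2os (2700081L22Rik), 257 bp from the condensin gene Smc2, had 18.5 and 15.8, then 19.8 and 19.6. Stamos (4921530L18Rik) had 16.2 and 20.2, then 13.5 and 15.2. Rab11fip4os1 (Gm11202) had 25.4 and 15.7, then 9.35 and 15.2.

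Host genes of small nucleolar RNAs or microRNAs had 7 regions, 4 in all libraries, with 2 changes each way. Snhg15 (Gm11974) had 12.4 and 15.5, then 6.5 and 9.69. Mir99ahg (2810055G20Rik) had 7.51 and 11.4, then 6.7 and 7.03. The zinc finger group was the largest, with 42 regions of 23 genes, 26 in all libraries, 19 positive and 7 negative changes and a median of 0.33. It includes genes in repeated sequence, such as Zfp991 and Zfp966, where reads cannot be placed on a single copy. Among all Gm and Rik promoters, repeated windows had a median of 0.21 (72.7% positive) and the others 0.03 (53.8% positive). The part of repeats in the group was not tested. Zfp983 (3110052M02Rik) had 40.8 and 39.6, then 42.0 and 19.5. Zfp975 (Gm5595) had 28.0 and 28.4, then 36.5 and 32.6, and Zbed5 (2410018M08Rik) 31.7 and 25.1, then 38.6 and 29.0.

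Mitochondrial descriptions had 6 regions, 4 in all libraries, 1 of them with a positive change. The group rests on a word in the description, which left out Mtln, named above with a log2 change of 1.39. Micos13 (2410015M20Rik), a subunit of the complex that shapes cristae, had 11.4 and 13.4 in the control and 4.87 and 5.26 in the IL-4 libraries, a log2 change of −1.05 ± 0.50 (limma adjusted p = 0.584). Mterf1b (Gm9897) and Mtres1 (1700021F05Rik), both factors of mitochondrial transcription, had log2 changes of 0.04 and −0.22. Transmembrane descriptions had 4 regions in all libraries, all with positive changes and a median of 0.30. The groups overlapped at Tmem35b (Gm12942) and Tmem273 (1810011H11Rik). They also overlapped at the transcribed pseudogene Gm2518, which had 5.46 and 7.53, then 13.7 and 6.41.

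Coiled-coil genes had 6 regions in all libraries with a median of 0.21. Ccdc191 (2610015P09Rik), 226 bp from Qtrt2, had 33.7 and 38.1, then 43.7 and 40.6, while Ccdc189 (Gm166), 103 bp from Rnf40, had 21.8 and 17.9, then 14.1 and 7.59. Relch (2310035C23Rik) had a log2 change of 0.10. Kinase descriptions had 8 such regions with a median of 0.10, from Dipk2a (1190002N15Rik) with 17.6 and 18.1, then 14.3 and 18.6, to Peak1 (C230081A13Rik) and Map2k3os (Gm16516), with changes of 0.14 and −0.26. Ribosome descriptions had 2, Rbis and the pseudogene 4632415L05Rik, the latter with 21.03 and 19.5, then 26.1 and 28.9.

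A list of 85 macrophage and IL-4 genes was searched for partners. A single promoter, that of the lncRNA 5730420D15Rik (chr10:95417961-95418137), starts within 1000 bp of such a gene on the other strand, 518 bp from Socs2, a feedback inhibitor of cytokine signalling. Its heights were 8.53 and 6.03 in the control and 6.09 and 3.38 in the IL-4 libraries, a log2 change of −0.46 ± 0.54 (limma adjusted p = 0.880). The groups overlapped.

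Recent gene copies were a further feature. In 91 of the 1021 windows (8.91%) at least 50% of the 50-base words occurred more than once in the genome, against 0.948% of other promoters. It was 30.4% of Gm and 2.30% of Rik promoters, and 44.1% of pseudogene promoters. Reads that lie within such words cannot be placed on a single copy, and how the aligned reads were treated there is not given in the sources used here. These promoters were tall where they were regular, with medians of 24.3, 23.1, 29.3 and 18.4 over the 44 with a peak in all 4 libraries, and 37.4% were found in 1 library alone.

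Of the 91, 47 regions of 19 genes lay in an array of 2.75 Mb on chromosome 2 (chr2:175206066-177956615), among them Gm6710, Gm14288, Gm14430, Zfp965 (Gm14306), Zfp966 (Gm8898), Zfp967 (Gm14431) and Zfp970 (Gm14420). The 4 genes with a Zfp symbol carry zinc finger descriptions. The regions fell into 2 kinds by position. Of 24 within 200 bp of a TSS, 23 had a peak in all 4 libraries, and their median heights were 25.7 and 25.5 in the control and 31.8 and 22.0 in the IL-4 libraries. Those in the first IL-4 library were the highest of the 4 in 16 of the 23.

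The second kind lay downstream. Of 22 regions more than 200 bp downstream, 0 had a peak in all 4 libraries and 15 were found in a single library. Heights there ran from 2.21 to 11.3, and 18 lay more than 700 bp from the TSS. The libraries contributed unequally, with 7 and 5 of these regions in the control libraries, 17 in the first and 2 in the second IL-4 library. The STAT6 spacing stood in 10 of the 18 distant windows and in 0 of the 24 close ones.

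Copies of the array share that motif and its flanks, as 2 places named Gm14432 show. The first had a height of 11.3 in the first IL-4 library alone, and the second, the IL-4-only region, had 7.73 and 2.53.
Gm14432 copy A, chr2:175337537-175337566: gaaatttgcaTTCACTAGAAttttccagac
Gm14432 copy B, chr2:176635638-176635664: gaaatttgcaTTCACTAGAAttttcca
Of the 15 downstream regions of a single library, 11 came from the first IL-4 library. The part of depth and of shared reads in this was not tested.

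**Figure D5:**
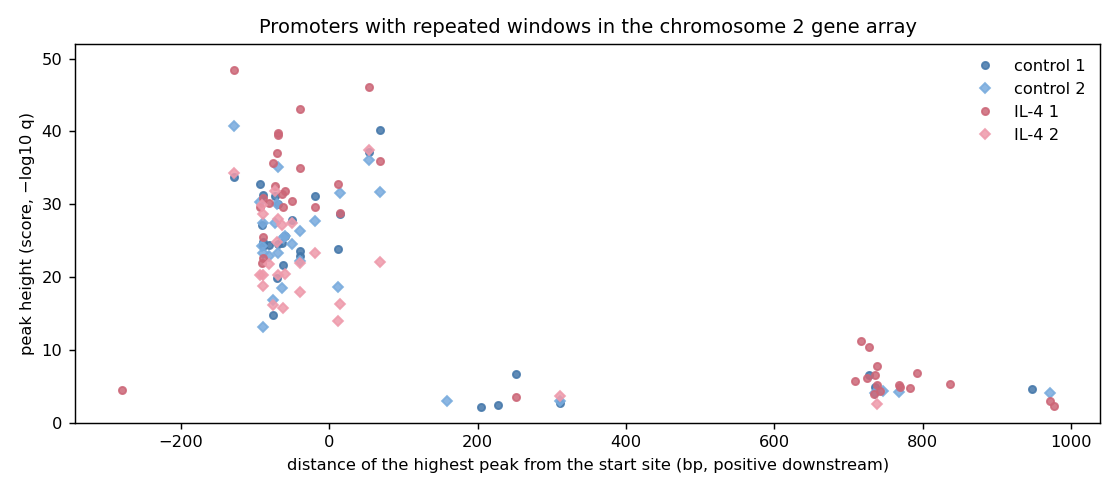
Peak height (y axis, −log10 q) against the distance of the highest peak from the TSS (x axis, bp) for the 47 regions of the chromosome 2 array, with a point for each library that has a peak. Regions within 200 bp of the TSS reach 48.5, and those further downstream stay at or below 11.3.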

How the data were processed

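ATAC-seq peaks of 4 BMDM libraries were analysed. The authors aligned reads to mm10, called peaks library by library without pooling, discarded blacklisted regions and annotated the rest, and their processing notes name BWA 0.7.10, SAMtools 0.1.19, MACS2 2.0.10 and HOMER 4.2. How the Tn5 cut and duplicate reads were treated is not given in the sources used here. The deposited peak score was read as −log10 of the q-value, since its lowest value, 1.3, is close to −log10 of 0.05. A q cut-off of 0.01 would be a score of 2, and 1262 peaks lay below it. No label states the unit.

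For regions that had peaks throughout the 4 libraries, log2 heights were quantile-normalised and tested with limma 3.58.1 (lmFit, eBayes with a trend, R 4.3.3), with Benjamini-Hochberg adjustment over 25442 regions. Merging, motif search, word counting and the limma fit were tested on simulated data. Sequences, gene types and start sites come from RefSeq on GRCm38.p6, where 76.96% of 14848 promoter regions with a known transcript had the deposited TSS distance within 2 bp. Motifs were searched on both strands in 200 bp centred on the highest peak. Python 3.11.15 and pysam 0.24.0 were used.

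Named promoters were, by rule, the 5 largest changes in each direction shared by both replicate numbers, the 5 strongest IL-4-only and control-only promoters, the 8 tallest, up to 3 per description group, those at the edge of the distance limit, the 3 genes with most regions (ties by name) and partners of the macrophage list. Members and lists were chosen with earlier results of these data known. G630025P09Rik, Gm766, 1600002D24Rik, a second Snhg16 region and the chromosome 2 array were added after their values were seen. The result of 1 further marker list is not reported here.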

Additional observations from a re-analysis of the deposited data

How the results depend on the processing

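The absence of any Gm or Rik promoter past the limma threshold held under every alternative, with a lowest adjusted p between 0.119 and 0.801. Over all regions the calls were 0 without IL-4 replicate 1, without IL-4 replicate 2 and in eBayes without a trend. With only peaks above the pooled median score there were 627 promoters, 344 of them in all libraries. Of the 627, 6 were IL-4-only and 24 control-only, against 19 and 19 with all peaks. Merging peaks within 500 bp gave 11 IL-4-only and 10 control-only promoters, and a TSS distance of at most 500 bp gave 11 and 12. Leaving out each library in turn gave 35 to 92 IL-4-only and 36 to 91 control-only promoters, and the difference in promoters with a peak ran from −60.5 to 31.5. The median log2 change was 0.02 to 0.07 with a library left out and 0.094 with median centring in place of quantile normalisation. Merging within 500 bp reversed the change at A530054K11Rik (0.46) and the gap at 4930449E18Rik (−1.65), and the merged regions took in neighbouring peaks. Leaving out promoters of repeated sequence, an alternative chosen after seeing the data, moved no count by over 1.5 times but took the median log2 change from 0.0458 to 0.0296. The 44 repeated promoters in all libraries had a median of 0.21, with 72.7% positive. Peaks above the pooled median score left Gm19689, 9230102O04Rik, Gm12250 and Mirt1 without a peak in both libraries of their group. At 4930449E18Rik no peak was left.

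The replicate numbers of the labels do not say that libraries were paired. With the replicate block, 0 Gm or Rik promoters were called higher and 0 lower, with 11 higher and 3 lower over all regions. The differences between replicates 1 and 2 had a Pearson r of 0.0068 and a Spearman rho of 0.0064 between the groups, across 25442 regions that are not independent replicates.

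With 2 libraries a group and scores in place of counts, depth cannot be separated from height, and small differences were not detectable. Large ones could be missed as well, since Gm16386, with a log2 change of 1.71, had a limma adjusted p of 0.236.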

Other observations

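Many more regions carry a Gm or Rik name at a distance. Beyond 1000 bp of the TSS there were 5611 regions assigned to such genes, 1113 of them within 10 kb. Of the 5611, 174 (3.10%) were IL-4-only and 259 (4.62%) control-only, beside 2.53% and 4.33% of all regions.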
